A study of Mus musculus with 10 samples.

Results

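The endoderm and the haematopoietic mesoderm of this mouse embryonic stem cell (mESC) differentiation series were compared gene by gene, using the 2 samples labelled Endoderm and the 2 labelled Flk1+ high, 4 of the 10 RNAseq samples. Samples were grouped by the cell type label alone. The pair was taken as the 2 most distant populations of the series, with earlier results of these data known. That they differ widely is therefore no finding. The other 6 samples, 3 of Foxa2+ and 3 of Foxa2- cardiac mesoderm (CM), entered the model for the shared spread and are given below only as a reference range. All cells came from the mESC line Foxa2-hCD4, in which a truncated human CD4 is made from the Foxa2 locus, and were sorted at day 5 of differentiation in embryoid bodies. Endoderm came from cultures given Activin A alone at 75 ng/ml and was sorted as hCD4+ cells negative for Pdgfra and Kdr. Haematopoietic mesoderm came from the cardiac cultures, given Activin A at 8 ng/ml, BMP4 at 1 ng/ml and VEGF at 5 ng/ml, and was sorted as Kdr-high, Pdgfra-negative cells (Flk1 is another name for Kdr). The populations therefore differ in culture protocol as well as in gate, and the effects of these cannot be told apart. A line of 1 genotype was used, and the labels do not say whether replicates were separate cultures, so p-values measure the spread between these samples, which may be technical.

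Endoderm is the germ layer that forms the lining of gut, liver, pancreas and lung. It leaves the anterior primitive streak in cells exposed to high Nodal signalling, which Activin A mimics in culture, and is set up by transcription factors of the Foxa, Sox17 and Gata families. Blood and endothelium arise from mesoderm of the posterior streak that makes the VEGF receptor Kdr, where Etv2, Tal1, Lmo2, Gata2 and Fli1 act together, and the earliest blood cells come from cells that still make endothelial genes.

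Total counts on genes were 10926284 and 12317143 in the endoderm samples and 16261777 and 13210503 in the haematopoietic mesoderm samples. Reads on genes made up 77.9% and 80.5% of the unique reads in endoderm against 74.81% and 75.03% in haematopoietic mesoderm, and the part of this difference in the results was not tested. Levels are CPM, counts scaled to the TMM-adjusted library total, 3 counts amount to 0.188 to 0.28 CPM, and fold changes are log2 values of endoderm minus haematopoietic mesoderm. A gene was called where edgeR's quasi-likelihood F test gave a Benjamini-Hochberg adjusted p under 0.05 and the change was at least 2-fold. Of 16180 genes tested, 19.1% were called, 11% as higher in endoderm and 8.11% as higher in haematopoietic mesoderm, and the median log2 fold change over all of them was -0.00. The differences were large: 1103 genes were at least 4-fold higher in endoderm and 786 in haematopoietic mesoderm, and 363 and 319 were at least 16-fold higher. Every count of list members below can be read against these shares. Where a list below had 0 calls in a direction, DESeq2 and limma voom also gave 0, apart from 1 neural gene higher in haematopoietic mesoderm in DESeq2. At an unadjusted p under 0.05, edgeR gave 4 glycolysis genes and 1 proliferation gene higher in endoderm and 1 neural gene higher in haematopoietic mesoderm, and 0 genes in the other such cases. As the samples are bulk RNA, fewer cells of a type and less RNA per cell cannot be told apart.

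The sort genes followed the gates and are no finding. Foxa2 had 1992 and 2184 counts in endoderm and 11 and 10 in haematopoietic mesoderm, and Kdr had 67 and 119 counts against 8837 and 7526. Pdgfra, on which both populations were selected to be negative, stood at 49.9 and 71.6 CPM in endoderm and 34.3 and 23.8 in haematopoietic mesoderm, under the range of 201 to 306 CPM in the CM samples. Epcam, an adhesion protein of epithelia that was not used in the sort, was at 147 and 127 CPM in endoderm and 12.8 and 9.92 in haematopoietic mesoderm (log2 fold change 3.59, SE 0.24, adjusted p = 1.3e-05).

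The marker genes went with the labels except where stated. Of the 7 endoderm markers, Sox17, Foxa1, Cxcr4, Cer1, Epcam and Cdh1 were called higher in endoderm and Hhex was not. All 7 haematopoietic markers (Tal1, Lmo2, Etv2, Gata1, Gata2, Runx1 and Fli1) were called higher in the Flk1+ high samples. All 4 endothelial markers, Cdh5, Pecam1, Tek and Tie1, were higher there too. Afp, Ttr and Apoa1, which mark visceral endoderm, did not exceed 1.76 CPM in any of the 4 samples, and the cardiac markers Nkx2-5, Tnnt2 and Myl7 did not exceed 7.8 CPM. Low as they were, these cardiac markers were each called higher in haematopoietic mesoderm. The Myl7 call was lost under 5 of 18 alternatives and the Tnnt2 call under 1. The remaining visceral endoderm marker, Hnf4a, was called higher in endoderm, with limits given below. Of the pluripotent markers, Pou5f1 and Nanog were called higher in endoderm and Zfp42 was not. Of the neural markers, Sox3 was called higher in endoderm, and Sox1 and Pax6 were not called.

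**Figure D1:**
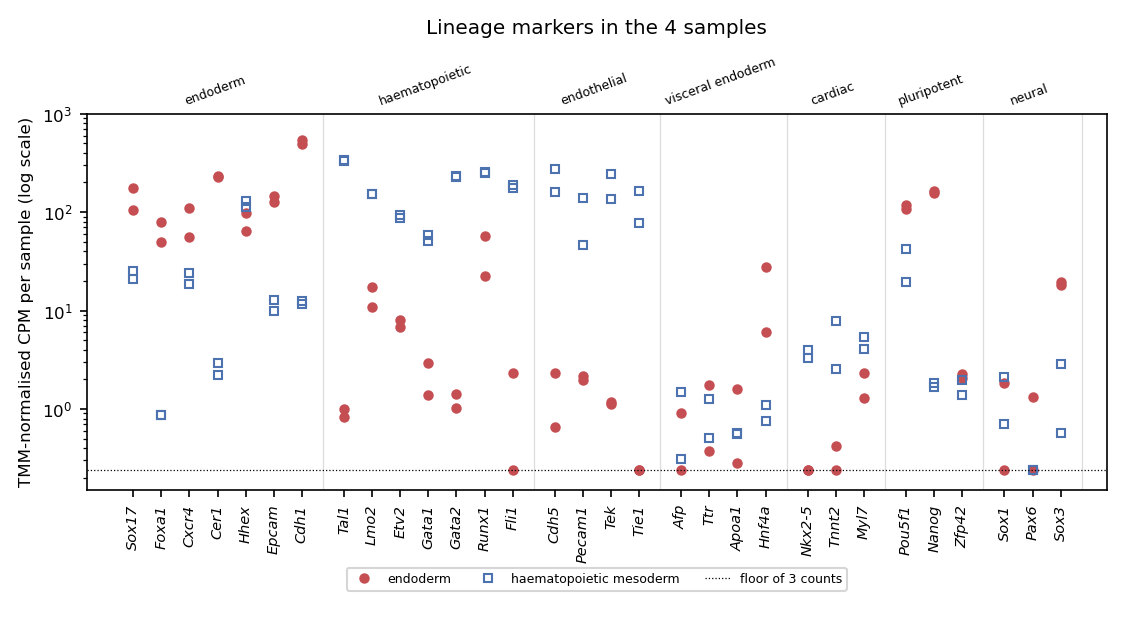
CPM of the marker genes (log axis) in each of the 2 endoderm samples (filled circles) and the 2 haematopoietic mesoderm samples (open squares), with values under the floor of 3 counts drawn at the dotted line. The haematopoietic and endothelial markers lie higher in the haematopoietic mesoderm samples, the endoderm markers other than Hhex lie higher in the endoderm samples, and the visceral endoderm markers Afp, Ttr and Apoa1 stay at or under 1.76 CPM in all 4. The visceral endoderm marker Hnf4a lies higher in the endoderm samples, as do Pou5f1, Nanog and Sox3.

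Definitive endoderm genes were higher in endoderm almost throughout. Of the 25 genes listed, 22 passed the filter on low counts, 18 were called higher in endoderm and 0 higher in haematopoietic mesoderm, with a median log2 fold change of 3.53. The sort gene Foxa2 is 1 of the 18 and is part of the summed level. The summed level of the list was 2278 and 3156 CPM in endoderm against 397 and 379 CPM in haematopoietic mesoderm, and 535 to 788 CPM in the CM samples. Nepn, Shh and Pyy had too few reads to be tested.

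Among the transcription factors of this list, Foxa1, which opens chromatin together with Foxa2, was at 50.1 and 79.1 CPM in endoderm and 0.878 and 0.866 in haematopoietic mesoderm (log2 fold change 6.20, SE 0.31, adjusted p = 2.69e-06). Sox17, a core regulator of definitive endoderm, was at 105 and 177 CPM against 25.3 and 21, a smaller difference that left it well above the floor in haematopoietic mesoderm (log2 fold change 2.61, SE 0.38). Sox17 also acts in endothelium. Otx2 and Lhx1, which act in anterior endoderm and head formation, were at 240 and 250 against 5.08 and 4.73 CPM and at 402 and 437 against 32.1 and 14.2 CPM. In each of these genes the ranges of the 2 populations were apart.

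The secreted factors of the list behaved alike. Cer1, an inhibitor of Nodal, BMP and Wnt ligands, had 227 and 231 CPM in endoderm and 2.95 and 2.21 in haematopoietic mesoderm (log2 fold change 6.46, SE 0.295, adjusted p = 2.1e-06). The Wnt inhibitor Sfrp5 had 19.7 and 83.2 CPM against 2.57 and 0.788. Another Wnt inhibitor, Dkk1, had 44.4 and 103 CPM against 11.2 and 13.3, and in the CM samples it reached 64.7 to 96 CPM. Per kilobase of annotated exon, the highest mean levels of the list in endoderm were 147 CPM for Trh, the thyrotropin-releasing hormone precursor, 132 for Cer1, 103 for Lhx1, 93.9 for the claudin Cldn6 and 77.7 for Foxa2.

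The other 4 members tested missed the limits of a call. Hhex, a homeobox gene used both by foregut endoderm and by blood and endothelial progenitors, was at 64 and 98 CPM in endoderm and 114 and 130 in haematopoietic mesoderm (log2 fold change -0.59, SE 0.29, adjusted p = 0.153), and both groups stood above the CM range of 17.5 to 36.9 CPM. Gata6 was at 117 and 181 CPM against 78.1 and 84.5, a difference under the 2-fold limit (log2 fold change 0.88, adjusted p = 0.00498). The keratin Krt19 and Ripply3 were the other pair.

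Genes of visceral endoderm, the extraembryonic layer that shares Foxa2, Sox17 and Cer1 with definitive endoderm, gave no such pattern. Of 25 members 18 were tested, 2 were called higher in endoderm and 3 higher in haematopoietic mesoderm, with a median of -0.03. The first count was 0 without endoderm replicate 2 or haematopoietic mesoderm replicate 2 and 1 without haematopoietic mesoderm replicate 1, and the second was 1 without endoderm replicate 1. The summed level was 183 and 290 CPM in endoderm and 253 and 270 in haematopoietic mesoderm, much of it from Apoe, at 75.7 and 95.4 CPM against 133 and 159. Afp had 0 and 0.92 CPM in endoderm, Ttr 0.373 and 1.76, Apoa1 0.28 and 1.59, and Alb and Fga had no read in any of the 4 samples. Hnf4a, a nuclear receptor of visceral endoderm, liver and gut, was called (6.06 and 27.5 CPM against 0.753 and 1.1, adjusted p = 0.0194), but leaving out endoderm replicate 2 gave an adjusted p of 0.146 and leaving out either haematopoietic mesoderm replicate gave 0.0713 or 0.0636.

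Epithelial genes were largely higher in endoderm. All 29 listed junction, keratin and epithelial splicing genes were tested, 23 were called higher in endoderm and 0 higher in haematopoietic mesoderm, with a median log2 fold change of 3.59. Cdh1 (E-cadherin), the adhesion molecule of epithelia, was at 545 and 493 CPM in endoderm and 12.5 and 11.7 in haematopoietic mesoderm (log2 fold change 5.42, SE 0.16, adjusted p = 4.17e-07). Esrp1, a splicing factor confined largely to epithelia, was at 275 and 266 CPM against 7.28 and 5.36. The polarity gene Crb3 was at 27.9 and 36.4 CPM against 0.565 and 0.236 and the claudin Cldn7 at 75.8 and 77.5 against 1.76 and 1.97. Ovol2, a zinc finger repressor of mesenchymal genes, had 199 and 432 counts in endoderm and 1 and 2 in haematopoietic mesoderm, a ratio of 265 with a 95% counting interval of 90.4 to 1291. Keratins did not move together: Krt7 was called, while Krt8 (73.6 and 86.6 against 57.4 and 46.6 CPM) and Krt18 (90.3 and 109 against 61.2 and 50.2 CPM), the keratins of the earliest epithelia, differed by less than 2-fold. Desmoplakin (Dsp), at 330 and 461 CPM against 255 and 448, had overlapping groups.

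Mesenchymal genes were less uniform. Of 21 tested, 6 were called higher in haematopoietic mesoderm and 1 higher in endoderm, with a median of -0.67. Zeb1 and Zeb2, which repress E-cadherin, were at 2.98 and 11.5 against 112 and 165 CPM and at 45.9 and 32.7 against 291 and 265 CPM (log2 fold changes -4.23 and -2.83, adjusted p = 0.000393 and 4.19e-05). Foxc2, a forkhead factor of mesoderm and vessels, was at 0.652 and 0.0837 CPM against 12 and 13.5, and fibronectin (Fn1) at 449 and 408 against 956 and 1149. Snai1, which starts the epithelial to mesenchymal transition at the streak, was not called, at 43.4 and 24.9 CPM in endoderm and 24.7 and 13.2 in haematopoietic mesoderm, both under the CM range of 60.7 to 98.1. Vimentin (Vim) was not called. Cdh2 (N-cadherin) was the member higher in endoderm, at 238 and 278 CPM against 147 and 90.8, and fell under the 2-fold limit without endoderm replicate 2 (log2 fold change 0.997) or haematopoietic mesoderm replicate 2 (0.81).

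**Figure D2:**
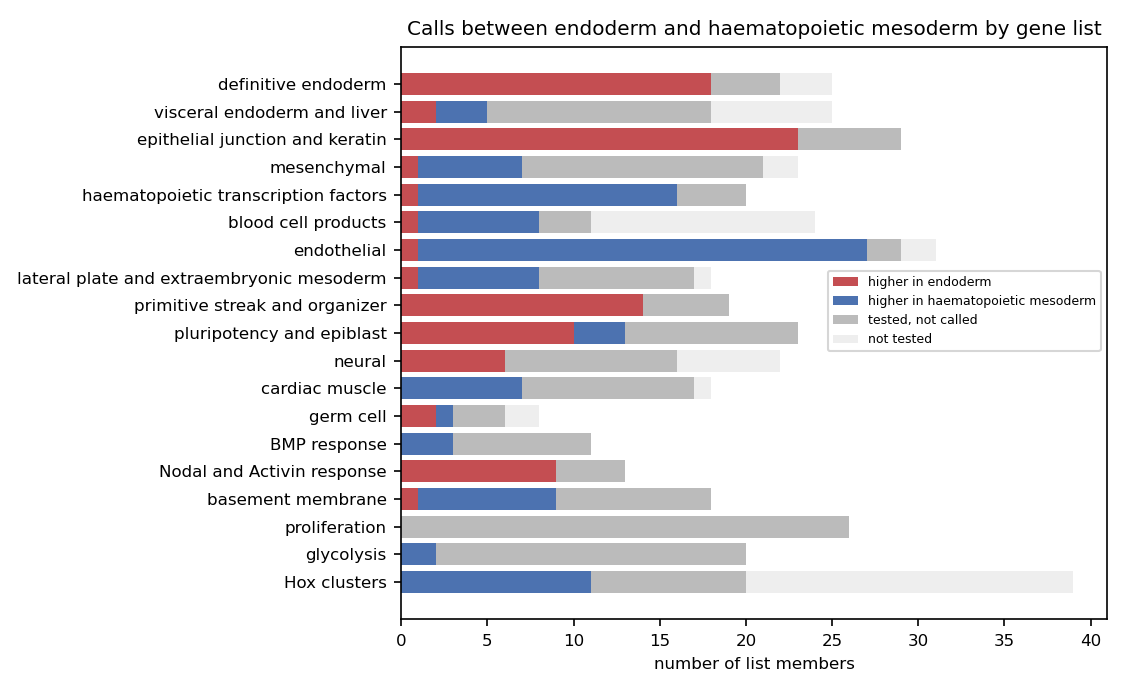
Number of members of each of the 19 gene lists that were called higher in endoderm, called higher in haematopoietic mesoderm, tested and not called, or not tested. The definitive endoderm (18 of 25) and epithelial (23 of 29) bars are mostly endoderm calls, the endothelial bar (26 of 31) is mostly haematopoietic mesoderm calls, and the proliferation bar holds 0 calls among 26 genes.

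Transcription factors of blood formation were higher in haematopoietic mesoderm. All 20 listed were tested, 15 were called higher there and 1 higher in endoderm, with a median log2 fold change of -4.12. Their summed level was 2167 and 2201 CPM in haematopoietic mesoderm, 152 and 289 CPM in endoderm and 580 to 894 CPM in the CM samples.

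Tal1, a helix-loop-helix factor required for all blood lineages, was at 328 and 339 CPM in haematopoietic mesoderm and 0.839 and 1 CPM in endoderm (log2 fold change -8.48, SE 0.76, adjusted p = 6.08e-05). Its partner Lmo2, a bridging protein without DNA binding of its own, was at 154 and 152 CPM against 10.8 and 17.5. Gata2 was at 235 and 226 CPM against 1.02 and 1.42 (log2 fold change -7.54, SE 0.31), and Gata1, which drives the red cell and platelet lineages, was at 58.2 and 51 CPM against 1.4 and 2.93. The Gata1 call was lost when endoderm replicate 1 was left out (log2 fold change -4.23, adjusted p = 0.0551). Both replicates of haematopoietic mesoderm gave nearly equal levels of these 4 genes.

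The ETS family factors Fli1 and Erg separated the populations widely, whereas Etv2, which stands above both in the hierarchy, did less so. Fli1 was at 175 and 190 CPM against 0.186 and 2.34. Erg had 953 and 992 counts in haematopoietic mesoderm and 1 and 0 in endoderm, a ratio of 1541 with a 95% counting interval of 276 to 60896. Etv2 was at 88 and 92.4 CPM in haematopoietic mesoderm and 6.8 and 7.95 in endoderm (log2 fold change -3.61, SE 0.17, adjusted p = 2.19e-06), while the CM samples held 91.1 to 126 CPM. Per kilobase of exon, however, Etv2 had the highest mean level of the list in haematopoietic mesoderm, at 86.1 CPM, followed by Tal1 at 76.2, Lmo2 at 70.7 and Zfpm1 at 60.1.

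Factors that act later were also present. Runx1, needed for the step from endothelium to blood, was at 258 and 249 CPM in haematopoietic mesoderm and at 22.4 and 57.6 in endoderm (log2 fold change -2.65, adjusted p = 0.00242). Lyl1 was at 61.6 and 62.6 CPM against 0.373 and 0.0837, Gfi1b at 55.8 and 50.1 against 0.373 and 0.167, and the corepressor Cbfa2t3 at 187 and 174 against 0.0932 and 0.335. Spi1 (PU.1), the factor of the myeloid lineage, was at 20.3 and 13 CPM against 0.28 and 0.251. Ikzf1 (137 and 127 CPM against 18.4 and 31.4, adjusted p = 0.0721), Gfi1, Klf1 and Meis1 were not called. Mecom, a regulator of blood stem cells that is also made in epithelia, was the member higher in endoderm, at 19.3 and 34 CPM against 5.9 and 4.25.

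Products of mature blood cells were largely near or under the floor in both populations. Of 24 listed genes 13 were not tested, 7 were called higher in haematopoietic mesoderm and 1 in endoderm, and 11 had no read in either endoderm sample. The early embryonic globin Hbb-bh1 had 47 and 295 counts in haematopoietic mesoderm and none in endoderm, at least 49.4-fold higher against a floor of 3 counts per library, and its call was lost without either endoderm replicate (adjusted p = 0.0829 and 0.0899) or haematopoietic mesoderm replicate 2 (0.0766). Hba-x and Hba-a1 had no read in any of the 4 samples, and the pan-leukocyte gene Ptprc had none in haematopoietic mesoderm, which allows up to 3 counts per library. Itga2b (CD41), the first surface marker of blood commitment, was at 122 and 154 CPM against 1.12 and 1.42 (log2 fold change -6.74, adjusted p = 0.000284). Alas2, which starts haem synthesis in red cells, was at 12.5 and 26.5 CPM against 1.02 and 0.669. Kit, the stem cell factor receptor, was higher in endoderm, at 200 and 313 CPM against 60.8 and 112, and this call was lost without endoderm replicate 2 (log2 fold change 1.22, adjusted p = 0.0576).

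Endothelial genes separated the populations as widely as the blood factors. Of 31 listed 29 were tested, 26 were called higher in haematopoietic mesoderm and 1 higher in endoderm, with a median log2 fold change of -4.58. The summed level was 3622 and 4063 CPM in haematopoietic mesoderm, 740 and 878 CPM in endoderm and 1017 to 1540 CPM in the CM samples. Kdr, a sort gene, belongs to the list and to these counts.

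Among receptors, Tie1 had 1249 and 2060 counts in haematopoietic mesoderm and none in endoderm, at least 454-fold higher, although with either endoderm library left out its adjusted p was 0.0565 or 0.0603. Tek, the angiopoietin receptor, was at 135 and 245 CPM against 1.12 and 1.17, and the lymphatic VEGF receptor Flt4 at 350 and 219 against 12.2 and 11.5. Flt1, the decoy receptor for VEGF, was not called, at 251 and 460 CPM in endoderm and 403 and 222 in haematopoietic mesoderm, and was at 8.63 to 50.9 CPM in the CM samples. Flt1 was therefore high in both sorted populations, and its replicates overlapped.

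Junction genes followed the receptors. VE-cadherin (Cdh5) was at 158 and 275 CPM against 0.652 and 2.34, with a call that was lost without endoderm replicate 1 (log2 fold change -6.54, adjusted p = 0.0567). Pecam1 was at 46.7 and 138 CPM against 1.96 and 2.17 and Esam at 85.4 and 107 against 1.02 and 0.92. The transcription factors Sox7 and Sox18 were at 177 and 213 against 0.373 and 1.34 CPM and at 47.9 and 91.8 against 0.466 and 1.17 CPM, and endothelial nitric oxide synthase (Nos3) was at 101 and 84.7 against 0.745 and 1.59. In each of these genes but Nos3, haematopoietic mesoderm replicate 2 was the higher of its pair.

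Apelin and its receptor lay on opposite sides. Apln, the ligand, was at 190 and 130 CPM in endoderm and 5.52 and 4.33 in haematopoietic mesoderm (log2 fold change 5.01, SE 0.40, adjusted p = 3.57e-05). The receptor Aplnr was at 169 and 69.8 CPM in endoderm and 302 and 312 in haematopoietic mesoderm, and its call (log2 fold change -1.37, adjusted p = 0.0479) was lost under 11 of 18 alternatives, with an adjusted p of 0.263 when endoderm replicate 2 was left out.

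Promoter sequences of 5 genes that the comparison turned on are shown, as RefSeq gives them for GRCm38.p6, each as the 250 bases before a transcription start, 5′ to 3′ on the gene's strand. They were chosen after the matches were seen. Capitals mark matches on either strand to any of 4 motifs. The letters TGTTTAC are the core of forkhead factor sites. GATA factors recognise sites with the letters AGATAA. For ETS factors the letters searched were CCGGAAG, and for SOX factors they were ACAAAG. A match on the opposite strand shows as the reverse complement of these letters. The windows lie at chr12:57546112-57546361 on the minus strand for Foxa1, chr4:115056176-115056425 on the plus strand for Tal1, chr16:95459349-95459598 on the minus strand for Erg, chr8:84701207-84701456 on the plus strand for Lyl1 and chr7:30457516-30457765 on the minus strand for Kirrel2, a gene described below.
Foxa1: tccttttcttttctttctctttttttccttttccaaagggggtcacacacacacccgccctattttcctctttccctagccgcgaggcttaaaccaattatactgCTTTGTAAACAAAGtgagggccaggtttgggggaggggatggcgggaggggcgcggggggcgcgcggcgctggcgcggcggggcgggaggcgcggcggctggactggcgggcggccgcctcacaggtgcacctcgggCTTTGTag
Tal1: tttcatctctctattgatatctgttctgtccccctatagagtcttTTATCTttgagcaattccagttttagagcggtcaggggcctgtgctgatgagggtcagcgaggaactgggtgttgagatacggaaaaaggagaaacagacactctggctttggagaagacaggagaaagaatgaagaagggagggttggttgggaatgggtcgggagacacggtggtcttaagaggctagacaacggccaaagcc
Erg: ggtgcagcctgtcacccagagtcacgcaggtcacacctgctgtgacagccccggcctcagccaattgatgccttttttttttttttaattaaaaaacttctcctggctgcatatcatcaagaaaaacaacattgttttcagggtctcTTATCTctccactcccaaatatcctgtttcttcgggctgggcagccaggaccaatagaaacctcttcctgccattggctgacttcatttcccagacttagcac
Lyl1: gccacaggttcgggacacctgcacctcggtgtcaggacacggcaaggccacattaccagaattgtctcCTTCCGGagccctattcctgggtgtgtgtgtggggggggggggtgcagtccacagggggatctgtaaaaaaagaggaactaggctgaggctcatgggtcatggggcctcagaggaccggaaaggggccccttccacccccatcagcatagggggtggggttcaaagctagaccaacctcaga
Kirrel2: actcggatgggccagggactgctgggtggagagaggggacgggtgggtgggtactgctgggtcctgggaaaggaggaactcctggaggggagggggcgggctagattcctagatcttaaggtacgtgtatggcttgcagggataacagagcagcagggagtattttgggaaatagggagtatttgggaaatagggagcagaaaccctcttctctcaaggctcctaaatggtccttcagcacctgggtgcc
In Foxa1 a forkhead match overlaps SOX matches on both of its sides, the shown Tal1 and Erg windows each hold the GATA letters, Lyl1 holds the ETS letters and Kirrel2 holds none of the 4. The Erg window lies well inside the annotated gene (chr16:95359169-95586593), before an internal start. The Kirrel2 window also lies partly inside its annotated gene (chr7:30447534-30457690), before an internal start, and is not wholly upstream of that gene.

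The same letters were counted over promoters in general. Windows of 300 bases, 250 before and 50 after the start, were given for 11062 of 14102 tested protein-coding genes, 14156 windows in all. The forkhead letters were in 2.47% of all windows, 2.28% of windows of genes higher in endoderm and 2.59% of those higher in haematopoietic mesoderm. The GATA letters were in 6.56%, 7.56% and 8.13%, and the SOX letters in 13.9%, 16.8% and 12.4%. The ETS letters were in 15.8% of all windows but in 5.68% and 5.18% of windows of the genes higher on either side, and those windows also held fewer CpG pairs, a median of 4.67 per 100 bases on both sides against 6.67 overall. Of the 25 windows of blood transcription factors, 2 held the GATA letters (Erg and Tal1) and 3 the ETS letters (Gfi1, Lyl1 and Meis1). A match describes letters and not a bound site.

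The 12 protein-coding genes with the largest changes in endoderm, among those with at least 50 counts in both endoderm samples, were Ntrk2, Nphs1, Kirrel2, Foxd3, Chrna9, Lypd6b, Scel, Krt7, Rgs8, Gm11549, Lefty1 and Foxa2. Ntrk2, the receptor for brain-derived neurotrophic factor, had 195 and 380 counts in endoderm and none in haematopoietic mesoderm, at least 118-fold higher. Nphs1 (nephrin) and Kirrel2, cell surface immunoglobulin proteins of the kidney filter, lie head to head 625 bases apart, Kirrel2 at chr7:30447534-30457690 and Nphs1 at chr7:30458315-30487223 in GRCm38. They were at nearly equal levels, Nphs1 with 120 and 138 counts and Kirrel2 with 111 and 137, and neither had a read in haematopoietic mesoderm, at least 53.6-fold and 51.4-fold lower. Their highest value in any CM sample was 0.186 CPM.

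Foxd3, a forkhead factor of the epiblast and neural crest, had 497 and 641 counts in endoderm and 1 and 0 in haematopoietic mesoderm, a ratio of 1436 with a 95% counting interval of 257 to 56783. Scel (sciellin), a protein of the envelope of stratified epithelia, had 212 and 467 counts against 0 and 1. Krt7, a keratin of ducts and simple epithelia, had 327 and 780 against 0 and 3, a ratio of 466 with an interval of 159 to 2262. Rgs8, a regulator of G protein signalling, was at 39.5 and 79.1 CPM against 0.188 and 0.157 (log2 fold change 8.34, SE 0.52, adjusted p = 8.66e-06). Chrna9, a nicotinic receptor subunit, was the least abundant of the 12, with 106 and 65 counts against none. All 12 calls held under every alternative tried.

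The corresponding 12 genes in haematopoietic mesoderm were Tie1, Ctla2b, Gimap4, Smtnl1, Erg, Ppp1r17, Hapln1, Samsn1, Slfn14, Ednrb, Cyp4b1 and Gja6. Hapln1, a link protein that ties hyaluronan to proteoglycans, was the most abundant of them, with 3116 and 3288 counts in haematopoietic mesoderm and 1 and 3 in endoderm (log2 fold change -10.27, SE 1.88, adjusted p = 0.0027), and 1.83 to 27.5 CPM in the CM samples. Gimap4, a GTPase of the lymphoid lineage, had 285 and 304 counts against none, at least 78.9-fold higher. Smtnl1, a smooth and striated muscle protein, had 270 and 229 against none, and Ednrb, an endothelin receptor, 175 and 106 against none. Samsn1, an adaptor of blood cells, had 451 and 1252 counts against 1 and 0.

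The calls of 2 of these genes were less secure. Ctla2b, related to the cathepsin propeptide, had 119 and 632 counts against none, and its call was lost in limma voom (adjusted p = 0.0607), without either endoderm replicate (0.0839 and 0.0902) and without haematopoietic mesoderm replicate 2 (0.0647). It has the close paralogue Ctla2a, with 244 and 779 counts against 0 and 1, and reads of the pair may be split between them. The other gene was Tie1, described above. As the library kit does not keep strand, reads of Gja6 cannot be assigned by strand.

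Non-coding genes followed the same limits. Gm12688, a lincRNA 1316 bases from Foxd3, had 148 and 117 counts in endoderm and none in haematopoietic mesoderm or in any CM sample. Gm16233, which overlaps Clca4a, and 4930526L06Rik, which overlaps Ms4a1, followed with 112 and 112 and with 110 and 110 counts in endoderm, against 1 and 3 and against 7 and 0. Both are annotated as antisense, and without strand their reads cannot be told from those of Clca4a and Ms4a1 where they overlap. On the other side were Gm14204 (135 and 110 counts against 0 and 1), 2700046A07Rik and Igf2os. Igf2os was at 42.4 and 34.9 CPM against 0.186 and 1.17 and overlaps Igf2, a fetal growth factor gene that was itself at 335 and 396 CPM against 9.78 and 24.2 (log2 fold change -4.41, adjusted p = 4.71e-05), and the 2 cannot be told apart where they overlap.

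Genes of the primitive streak and organizer were higher in endoderm. Of 19 tested, 14 were called higher in endoderm and 0 higher in haematopoietic mesoderm, with a median log2 fold change of 3.28. Chrd (chordin), the BMP antagonist of the node, was at 251 and 198 CPM against 3.51 and 2.6 (log2 fold change 6.18, SE 0.25, adjusted p = 1.22e-06), and was at 2.06 to 3.44 CPM in the CM samples. The node and notochord genes Foxj1, at 67.3 and 44.8 CPM against 2.45 and 0.551, and Noto, with 58 and 65 counts against 2 and 0, pointed the same way, as did Fst, at 215 and 147 CPM against 9.35 and 4.88. Fgf8 was at 123 and 146 CPM against 2.89 and 5.83. The other 5 genes were not called: T (brachyury), Wnt3, Evx1, Nog and Tbx6. T was at 178 and 131 CPM in endoderm and 209 and 80.2 in haematopoietic mesoderm, Wnt3 at 109 and 113 against 79.4 and 102, and Evx1 at 53.5 and 75 against 77.5 and 37.6.

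Several pluripotency and epiblast genes were higher in endoderm, while others were not. Of 23 tested, 10 were called higher in endoderm and 3 higher in haematopoietic mesoderm. Nanog was at 162 and 156 CPM in endoderm and 1.82 and 1.65 in haematopoietic mesoderm (log2 fold change 6.51, SE 0.26, adjusted p = 1.1e-06). Sox2 was at 90.9 and 102 CPM against 1.51 and 2.84, and Fgf5, a mark of the postimplantation epiblast, at 259 and 247 against 3.58 and 4.02. Pou5f1 (Oct4) was at 117 and 107 CPM against 41.8 and 19.6. Zfp42 (Rex1), a gene of the naive state, was at 2.05 and 2.26 CPM against 1.38 and 1.97 and was not called. Dppa4 (0.0932 and 0.502 against 16.8 and 13.5 CPM), Klf2 and Esrrb were the 3 higher in haematopoietic mesoderm. Klf2, also a flow-responsive factor of endothelium, was at 61.7 CPM in one haematopoietic mesoderm replicate and 5.28 in the other, and its call was lost without endoderm replicate 2 (log2 fold change -3.96, adjusted p = 0.0614). The Esrrb call was lost without endoderm replicate 1 (log2 fold change -2.12, adjusted p = 0.0502).

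Of the neural list, 16 of 22 were tested, 6 were called higher in endoderm and 0 in haematopoietic mesoderm. Among these were Zic2, at 216 and 207 CPM against 42.9 and 48, and Sox3, Hesx1, Six3 and Irx3. Zic2 and Sox3 are also made in the epiblast. Sox1 and Pax6, which define neural progenitors, did not exceed 2.13 CPM in any of the 4 samples. Of 8 germ cell genes 6 were tested, with Tfap2c and Nanos3 higher in endoderm and Ifitm3 higher in haematopoietic mesoderm. The Nanos3 call was lost without endoderm replicate 2 (log2 fold change 2.12, adjusted p = 0.0629).

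Lateral plate genes were more often higher in haematopoietic mesoderm than in endoderm. Of 17 tested, 7 were called higher in haematopoietic mesoderm and 1, the sort gene Pdgfra, higher in endoderm, a call that was lost without endoderm replicate 2 (log2 fold change 0.78) or haematopoietic mesoderm replicate 2 (0.83). Tbx3 was at 182 and 261 CPM against 10.2 and 33, Hand1 at 33 and 69.9 against 2.98 and 2.84, and Bmp4 at 72.7 and 65.2 against 5.68 and 3.51 (log2 fold change -3.92, SE 0.18, adjusted p = 2.19e-06). The summed level of the list was 551 and 804 CPM in haematopoietic mesoderm and 197 and 333 CPM in endoderm, under the 1533 to 2003 CPM of the CM samples. Cardiac muscle genes were low in all 4 samples, with a summed level of 43.1 and 54.9 CPM in endoderm and 96.1 and 80.4 in haematopoietic mesoderm. Of 17 tested 7 were called higher in haematopoietic mesoderm, among them Nkx2-5, with 3.33 and 4.02 CPM against 0.0932 and 0.167, and 10 to 29.1 CPM in the CM samples.

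**Figure D3:**
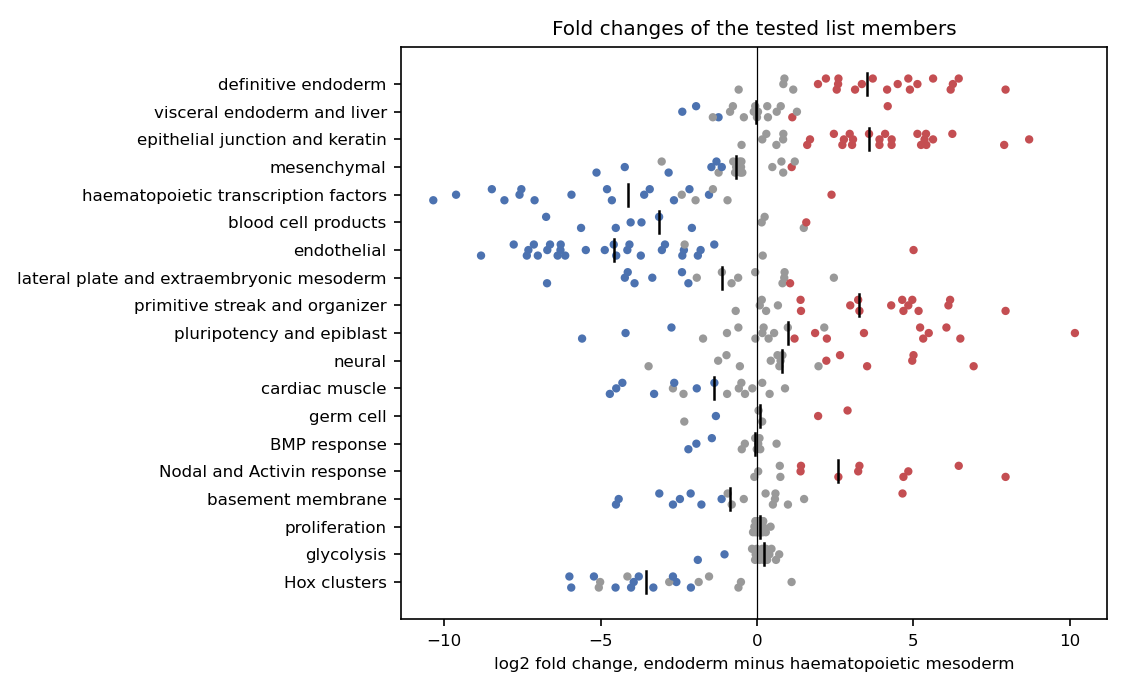
Log2 fold change of every tested member of each list (endoderm minus haematopoietic mesoderm), red for genes called higher in endoderm, blue for genes called higher in haematopoietic mesoderm, grey for genes not called, and a black bar at the list's median. Genes without a read in a group are drawn at the bound set by 3 counts per library. The endothelial median is at -4.58 and the epithelial median at 3.59, while the proliferation genes lie between -0.13 and 0.44.

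Nodal and Activin response genes were higher in endoderm. This population was cultured with the larger dose of Activin A, but the part of the dose was not tested. It cannot be told apart from that of the gate or of the other culture factors. Of 13 tested, 9 were called higher in endoderm and 0 higher in haematopoietic mesoderm, with a median log2 fold change of 2.60. In a model of the 4 samples alone 5 were called. All of the 9 but Pmepa1 also belong to the streak and organizer or the definitive endoderm list. These calls are therefore largely not separate from those given above. Lefty1, a feedback inhibitor of Nodal, was at 154 and 181 CPM in endoderm and 0.502 and 0.866 in haematopoietic mesoderm (log2 fold change 7.95, SE 0.50, adjusted p = 8.66e-06), and at 1.02 to 3.72 CPM in the CM samples. Its paralogue Lefty2 was at 119 and 214 CPM against 3.2 and 10. Gsc was at 82.5 and 102 CPM against 1.57 and 5.04. The coreceptor Tdgf1 (Cripto) was at 151 and 127 CPM against 21.1 and 7.09. Foxh1, which carries the signal to DNA, and the inhibitor Smad7 were at like levels in both populations, Foxh1 at 108 and 113 against 109 and 125 CPM.

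The haematopoietic mesoderm replicates disagreed in this pathway. Nodal itself was at 1.07 CPM in replicate 1 and 23.7 in replicate 2, against 101 and 128 in endoderm, and its call was lost without endoderm replicate 2 (log2 fold change 3.05, adjusted p = 0.0587). Pmepa1, a target that restrains the pathway, was at 2.38 and 43.8 CPM against 119 and 156. The Pmepa1 call was lost without either endoderm replicate (adjusted p = 0.0649 and 0.107) and without Foxa2- CM replicate 2 (0.0523). Mixl1 and Eomes, streak factors under Nodal control, were at 53 and 120 against 238 and 221 CPM and at 81 and 205 against 404 and 347 CPM, and with replicate 1 left out their differences were under 2-fold (log2 fold changes 0.93 and 0.87). Eomes was also lost without endoderm replicate 1 (adjusted p = 0.064).

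BMP response genes separated the populations little. Of 11 tested, 3 were called higher in haematopoietic mesoderm and 0 in endoderm, with a median of -0.06, and 0 were called in the model of the 4 samples alone. Without endoderm replicate 1 the count was 1. The direct targets Id1 (28.3 and 53.9 against 39.4 and 38.4 CPM), Id2 and Id3 (68.4 and 80.4 against 66.1 and 72.3 CPM) were not called. Id4, Smad6 and Msx2 were, the last at 3.63 and 8.7 CPM in endoderm, 17.4 and 39.9 in haematopoietic mesoderm and 82.3 to 99 in CM. Id4 was lost without endoderm replicate 1 (adjusted p = 0.0533), and Smad6 without endoderm replicate 1 (0.0762) or haematopoietic mesoderm replicate 2 (0.0753).

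**Figure D4:**
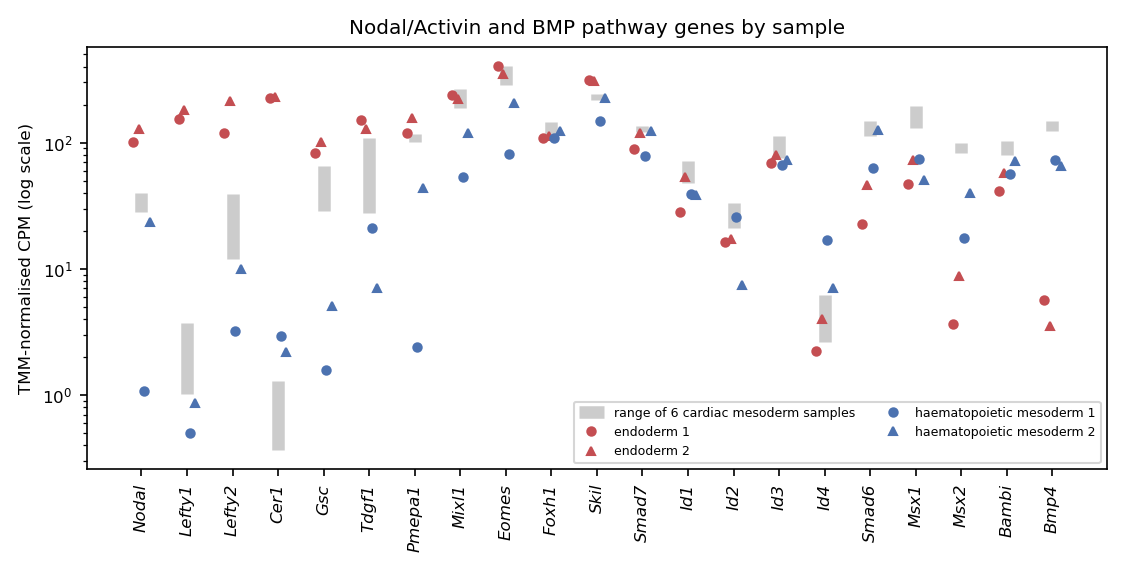
CPM (log axis) of Nodal/Activin and BMP pathway genes in each endoderm sample (red) and haematopoietic mesoderm sample (blue), circles for replicate 1 and triangles for replicate 2, with a grey bar for the range of the 6 CM samples. Lefty1 and Cer1 are far apart between the populations, Id1 and Id3 are not, and Nodal and Pmepa1 differ widely between the haematopoietic mesoderm replicates.

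Basement membrane genes were more often higher in haematopoietic mesoderm. Of 18 tested, 8 were called higher in haematopoietic mesoderm and 1 in endoderm, with a median of -0.87. The summed level was 2800 and 3691 CPM in endoderm and 3894 and 4058 in haematopoietic mesoderm. Of the 8 calls, Col18a1 was lost under 9 of 18 alternatives, DESeq2 among them (adjusted p = 0.0697). Col4a5 was lost under 6, limma voom among them (adjusted p = 0.171), and Col4a2 under 2. Lama4, the laminin alpha chain of vessels, was at 90.2 and 80.6 CPM in haematopoietic mesoderm against 3.45 and 4.02 in endoderm, and nidogen (Nid1) at 130 and 158 against 15.2 and 17.8. Lama5, the alpha chain of epithelia, was at 363 and 481 CPM against 758 and 919 and was just under the 2-fold limit (log2 fold change 0.99, adjusted p = 0.000987). Lamb1 and Lamc1 differed by less than 2-fold.

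Proliferation genes did not differ past the limits. Of the 26, 0 were called by edgeR, DESeq2 or limma voom and 1 had an unadjusted p under 0.05 in edgeR, their log2 fold changes ran from -0.13 to 0.44, and Mki67 was at 612 and 581 CPM in endoderm and 607 and 612 in haematopoietic mesoderm. Of 20 glycolysis genes 2 were called, Hk1 and Pfkp, both higher in haematopoietic mesoderm. Pfkp, a phosphofructokinase, was at 198 and 291 CPM against 74.4 and 57.4, while the related Pfkl and Pfkm were not called. Hk1 left the limits without endoderm replicate 1 (adjusted p = 0.0624) or haematopoietic mesoderm replicate 2 (log2 fold change -0.71).

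Hox genes, which set position along the body axis, were low. An identifier was matched for 38 of 39, 20 were tested, 11 were called higher in haematopoietic mesoderm and 0 in endoderm, and 15 of the 38 had no read in either endoderm sample. The median log2 fold change was -3.98, or -3.55 with genes absent from a group set at their bound. Hoxb2 was at 9.1 and 15.1 CPM against 0 and 1.51. Hoxb5 had 26 and 134 counts against none, at least 23-fold higher. Without endoderm replicate 1 the adjusted p was 0.0596 for Hoxb2 and 0.0515 for Hoxb5, and without endoderm replicate 2 it was 0.0568 for Hoxb5. With 1 sample left out the count ran from 2, without endoderm replicate 1, to 12, and it was 5 without endoderm replicate 2 and 7 without haematopoietic mesoderm replicate 2.

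The replicates of the 2 populations were not equally close. Among protein-coding genes averaging 50 counts or more over the pair, 330 of 11303 differed at least 2-fold between the endoderm replicates (2.92%) and 844 of 11360 between the haematopoietic mesoderm replicates (7.43%). Differences of at least 4-fold were found in 19 and 176 genes, after the worth of 3 counts was added to each value. With 1 sample against 1 there is no test of these.

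In haematopoietic mesoderm the 5 genes highest in replicate 2 over replicate 1 were Pkhd1l1, Nkx6-1, Sost, Bnc1 and Myocd. Pkhd1l1, a large membrane protein, was at 2.89 and 145 CPM in replicates 1 and 2 and at 46.4 to 106 in the CM samples. Myocd (myocardin), the coactivator of muscle genes, was at 0.314 and 10.4 CPM, and Bnc1 (basonuclin), made in mesothelium and epithelia, at 0.188 and 8.74. Each of these 3 was present in the CM samples at 4.52 CPM or more. The other 2 stood above the CM range in replicate 2. Nkx6-1 was at 0.627 and 29.1 CPM in replicates 1 and 2 and at 4.98 to 9.08 in CM. Sost was at 0.251 and 11.2 CPM, and at 0.397 to 2.03 in CM. Those highest in replicate 1 were Dbx1, Egr3, Dclk1, Thbs1 and Frzb. The immediate-early gene Egr3 was at 20.6 and 1.26 CPM, thrombospondin 1 (Thbs1) at 36.8 and 2.68 and the Wnt inhibitor Frzb at 16.4 and 1.1. By list, replicate 2 was at least 2-fold above replicate 1 in 6 of 10 Nodal and Activin genes and the reverse held in 1, and replicate 1 was at least 2-fold above replicate 2 in 7 of 15 pluripotency and epiblast genes and the reverse in 0. Other lists shifted too. Replicate 2 was at least 2-fold higher in 4 of 7 Hox, 5 of 12 lateral plate and 5 of 29 endothelial genes. The reverse held in 1, 2 and 1 of these. Of 12 streak and organizer genes, 4 were at least 2-fold higher in replicate 2 and 5 in replicate 1. For the 19 blood transcription factors the counts were 1 and 1.

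In endoderm the differences were smaller. Cpn1, Pdyn, Hkdc1, Ano1 and Mmp9 were highest in replicate 2 over replicate 1, Cpn1 at 3.91 and 30.2 CPM and Hkdc1, a hexokinase of gut and liver, at 3.91 and 26. Wnt3a, Fosb, Alcam and Nmnat2 were among the highest in replicate 1, Wnt3a at 13.8 and 3.01 CPM and the immediate-early gene Fosb at 40 and 9.62. Hnf4a and Sfrp5, given above, were likewise higher in replicate 2, whereas Foxa2, Cer1, Otx2 and Nanog were close to equal.

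**Figure D5:**
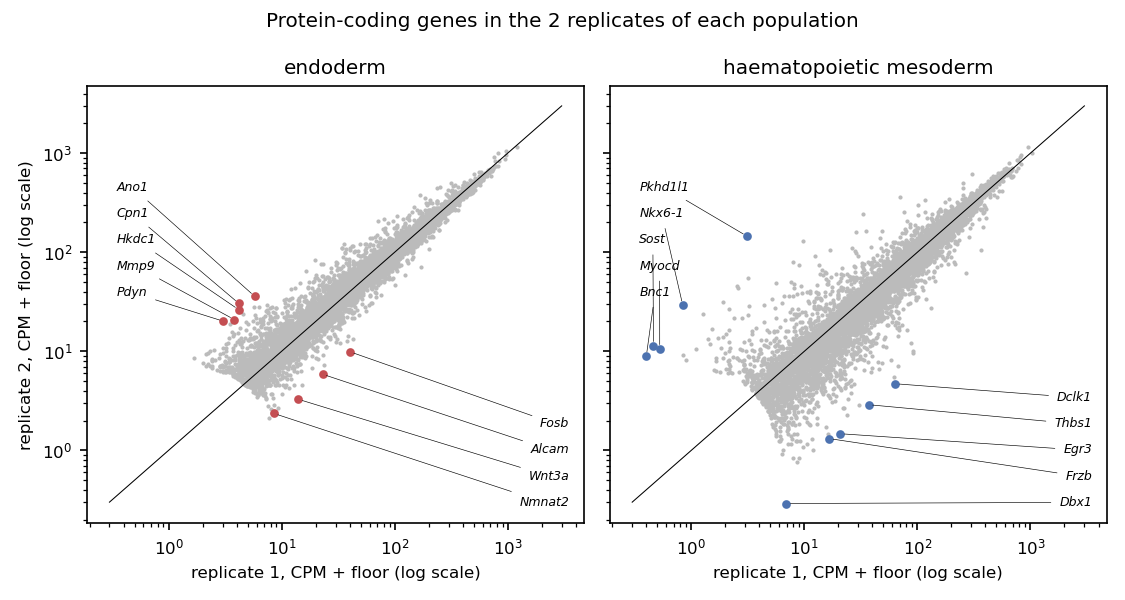
CPM of protein-coding genes averaging 50 counts or more over the pair, in replicate 1 (x axis) and replicate 2 (y axis) of endoderm (left) and haematopoietic mesoderm (right), both axes logarithmic and shifted by the worth of 3 counts, with the genes most apart in each direction that the text names marked and the line of equality drawn. The cloud is wider in haematopoietic mesoderm, where 176 genes are at least 4-fold apart against 19 in endoderm.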

How the data were processed

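The series holds RNAseq of 10 sorted samples from mESC differentiation cultures, and the 2 endoderm samples were compared with the 2 haematopoietic mesoderm (Flk1+ high) samples. Per the study's methods and the submitters' processing notes, libraries were made with an unstranded kit and read as 50 nt single-end reads, aligned to mm10 with STAR (2.5.0a), cleared of duplicate reads with Picard and counted with HTSeq (0.6.0). The values the authors deposited are raw counts per gene. Because duplicates were recognised by position alone, abundant transcripts lose genuine reads, and differences among them may be compressed.

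Counts were tested with edgeR 4.0.16 in R 4.3.3 (TMM normalization, default expression filter, quasi-likelihood F test, 1 mean per group over all 10 samples). Standard errors (SE) were derived from each gene's F value, as the size of its log2 fold change over the root of F. Alternatives used DESeq2 1.42.0 and limma 3.58.1, other filters, thresholds and sample sets. The fits were tested before use on 10 sets of simulated data. In each, 200 of 16180 genes were changed, all with a mean of at least 50 counts. At an adjusted p under 0.05, with no fold limit, edgeR recovered 59% to 74% of 2-fold and 87% to 98% of 4-fold changes. DESeq2 recovered 71% to 84% of 2-fold changes but called 39 to 65 unchanged genes, against 4 to 12 in edgeR. Far more genes were called in the data than were changed here. Ratios with 1 to 3 counts in a group have exact (Clopper-Pearson) 95% intervals, which, like the floors, cover counting error only. Names, positions and exon lengths came from GENCODE M21 for 37607 of 38924 identifiers. The annotation release used for counting was not given in the sources used here. Figures were drawn with matplotlib 3.10.9.

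The genes named are the sort genes, the 12 protein-coding and 3 non-coding called genes with the largest change in each direction and at least 50 counts in both samples of the higher group, the 5 genes most apart between replicates in each direction, and members of 19 gene lists. Igf2, Ctla2a, Clca4a and Ms4a1 were named after values were seen, as neighbours or paralogues of these. The members and lists were chosen with earlier results of these data known. Some items that these rules pick are not reported here.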

Additional observations from a re-analysis of the deposited data

How the results depend on the processing

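Over 18 alternatives, 143 of 202 called list members and named genes kept their call wherever they were tested, and no called gene reversed. Of 3098 genes called, 2839 were shared with DESeq2, 2903 with limma voom and 3084 with the other size factors. Counts that moved by over 1.5 times, or to or from 0, were as follows. A model of the 4 samples alone called 2052 genes (1188 higher in endoderm, 864 in haematopoietic mesoderm), with 5 Nodal and Activin genes and 0 lateral plate genes in endoderm and 0 visceral endoderm, 1 pluripotency, 4 cardiac muscle, 0 BMP and 3 Hox genes in haematopoietic mesoderm. Testing against the 2-fold limit called 1830 (1077 and 753), with 5 Nodal and Activin genes and 0 visceral endoderm, mesenchymal, blood product and lateral plate genes in endoderm, and 3 mesenchymal, 0 germ cell, 1 BMP, 5 basement membrane, 1 glycolysis and 5 Hox genes in haematopoietic mesoderm. At 4-fold 1889 were called (1103 and 786), with 1 visceral endoderm gene, 1 germ cell gene and 0 mesenchymal, blood product and lateral plate genes in endoderm, and 3 mesenchymal, 0 germ cell, 1 BMP and 0 glycolysis genes in haematopoietic mesoderm. At 1.5-fold there were 2 mesenchymal, 3 basement membrane and 1 glycolysis gene in endoderm and 5 pluripotency genes in haematopoietic mesoderm. Limma voom gave 2 mesenchymal and 2 basement membrane genes in endoderm and 4 lateral plate and 1 glycolysis gene in haematopoietic mesoderm, and DESeq2 gave 1 neural gene there. Without a filter there were 2 mesenchymal and 2 endothelial genes in endoderm and 1 definitive endoderm, 1 neural and 2 germ cell genes in haematopoietic mesoderm, and with a mean of at least 10 counts required there was 1 definitive endoderm gene there.

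With the replicate block, the replicate number taken as a pairing, 3217 genes were called (3037 of them shared), and 1 neural gene was higher in haematopoietic mesoderm. Deviations of same-numbered samples of the 2 populations correlated at 0.0383. With 2 replicates per population this is a single value, and it cannot show whether same-numbered samples shared a culture or batch. Leaving out 1 sample gave 2618 to 3440 called genes. On the endoderm side this gave 0 to 3 visceral endoderm, 1 to 3 mesenchymal, 0 to 2 blood product, 0 to 2 lateral plate, 0 to 1 cardiac muscle, 1 to 2 germ cell, 0 to 1 BMP, 1 to 2 basement membrane and 0 to 1 glycolysis genes. On the haematopoietic mesoderm side it gave 0 to 1 definitive endoderm, 1 to 3 visceral endoderm, 0 to 1 epithelial, 2 to 5 pluripotency, 0 to 2 neural, 1 to 2 germ cell, 1 to 3 BMP, 1 to 2 glycolysis and 2 to 12 Hox genes. The cause of these shifts was not tested.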
